A study of Mus musculus with 10 samples.

Results

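The ERK feedback genes described here are Dusp1, Dusp4, Dusp5 and Dusp6, Spry1, Spry2 and Spry4, and Spred1 and Spred2. They were followed through the chromatin windows to which the authors' annotation gave one of these 9 names as the nearest gene, which were 131 of 97788 windows in 4 peak lists. Windows that overlapped between lists were merged into 46 regions, of 33754 in all. The cells were MC3T3-E1, an established mouse osteoblast line from calvaria, and the assay was ATAC-seq, where a transposase inserts adapters into accessible DNA and the insertions are counted as tags. All cells were kept in 2.5% serum for 30 min before treatment. The 4 groups, of 2 libraries each, were TNFa at 10 ng/ml, BMP4 at 10 ng/ml for 3 h, TNFa and BMP4 together at those doses (TNFa+BMP4), and untreated cells. A further 2 libraries of sonicated MC3T3-E1 DNA were the authors' background. The length of TNFa treatment is uncertain, because the sample labels give 3 h and the treatment protocol has TNFa given 30 min ahead of BMP4. Both library titles of the TNFa group, and of no other, contain p65, without a stated reason. The labels do not say whether replicates were separate cultures, so a p-value reflects only how these libraries vary, and that variation may be technical.

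ERK is the last kinase of the cascade that runs from growth factor receptors through Ras, Raf and MEK, and in osteoblasts this cascade acts on proliferation and on Runx2, the transcription factor that directs bone formation. The genes described here encode its brakes. The Dusp proteins are phosphatases that remove the activating phosphates from MAP kinases, and the Sprouty and Spred proteins restrain signalling upstream, at the level of Ras and Raf. Several of them are transcribed in response to ERK itself, which closes a negative feedback loop. TNFa, an inflammatory cytokine, activates NF-kB and MAP kinases, and BMP4 signals to the nucleus through SMAD proteins.

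Sequence is shown for the Dusp5 and Dusp6 windows nearest the start of the gene and for the promoter of Dusp1, since accessibility near these starts is described below. The letters are from RefSeq promoters of build GRCm38.p6 (mm10), read 5' to 3' on the strand of the gene, and capitals mark motif matches. The Dusp5 window (chr19:53529016-53529140, + strand) had the same coordinates in all 4 lists, and its capitals are 2 adjoining CArG boxes, the motif of serum response factor, at -82 and -72 bp from the start site. The Dusp6 window is that of the untreated list (chr10:99263122-99263246, + strand) and held none of the motifs searched. In the Dusp1 promoter (chr17:26508423-26508722, - strand) the capitals are GGCGCC at -166 bp and the cyclic AMP response element TGACGTCA at -143 bp.
Dusp5 window: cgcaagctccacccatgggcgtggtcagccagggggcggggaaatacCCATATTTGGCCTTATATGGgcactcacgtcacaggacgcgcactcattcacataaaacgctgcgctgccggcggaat
Dusp6 window: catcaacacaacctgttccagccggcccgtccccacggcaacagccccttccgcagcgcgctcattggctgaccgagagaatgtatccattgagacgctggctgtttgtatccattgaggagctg
Dusp1 promoter: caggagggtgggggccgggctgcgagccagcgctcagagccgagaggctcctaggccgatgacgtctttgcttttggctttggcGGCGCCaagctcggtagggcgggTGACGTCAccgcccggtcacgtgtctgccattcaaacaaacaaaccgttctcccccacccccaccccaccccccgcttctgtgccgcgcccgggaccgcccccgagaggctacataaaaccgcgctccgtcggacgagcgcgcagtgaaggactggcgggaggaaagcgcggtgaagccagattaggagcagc

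Promoter sequences of 300 bp were matched for 7 of the 9 genes and searched on both strands for 6 motifs, as were all 32851 promoters of the table. GGCGCC, a site bound by BMP-responsive SMADs, was in 4 of the 7 promoters (Dusp1, Dusp5, Spred1 and Spred2) and in 11.9% of all promoters. TGACGTCA was in Dusp1 alone among the 7 and in 1.79% of all, and the CArG box was in Dusp5 alone and in 1.63% of all. The AP-1 motif TGANTCA, the ETS motif CCGGAAG and the NF-kB motif were in none of the 7 promoters, against 7.81%, 8.86% and 8.46% of all. No base printed above was in more than 1 match. The 7 promoters were rich in G and C, at 57% to 72.3% against a median of 52.7% over all promoters. Of all promoters, 62.6% had less than the lowest of the 7. The shares over all promoters are thus not matched for G and C, which bears most on GGCGCC, made of these letters alone. A match describes these letters and says nothing of binding.

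The labelled cell type was checked first. Of 10 osteoblast marker genes, 8 had windows in the TNFa list and 9 in each other list, and Alpl (alkaline phosphatase) had none in any list. Promoter windows were called for 4 of the 10 in the TNFa list and 5 in each other list. Of 7 haematopoietic markers 1 or 2 had a window, and of 7 endothelial or muscle markers 2 or 3 did, none of them at a promoter. Of 5 adipocyte markers 2 or 3 had a window, with Cebpa at its promoter in every list, and of 5 chondrocyte markers 3 or 4 did, with Sox9 at its promoter in every list. Depth, with M for megatags, was 16.5 M and 19.7 M in the TNFa libraries, 26 M and 27.9 M in the BMP4 libraries, 21.8 M and 18.8 M in the TNFa+BMP4 libraries and 30.1 M and 29.1 M in the untreated libraries. Of these tags, 3.5% to 5.64% lay in the windows tested below, the most in BMP4 replicate 2. In bulk libraries, fewer cells with an open window and less opening per cell cannot be told apart.

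All 9 genes had at least 1 called window. The TNFa list held 34 of their windows, the BMP4 list 30, the TNFa+BMP4 list 33 and the untreated list 34, of 23288, 24525, 23745 and 26230 windows in those lists. Each list was called on pooled replicates, so presence or absence in a list has no replicate check. In the authors' deposited table, the log2 level of these windows over sonicated DNA had a median of 3.78 for TNFa (3.47 over all windows of that list), 3.63 for BMP4 (3.79), 3.57 for TNFa+BMP4 (3.46) and 3.55 for untreated cells (3.54). By annotation, 57.3% of the windows of the 9 genes were intergenic, 26% were at promoters and 13.7% were in introns, against 31%, 33.2% and 31.2% of all windows.

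The genes differed in how many regions they had. Spred2 and Dusp6 had 11 and 12 regions, of which 4 and 6 were in all 4 lists, and Dusp1 had 9, of which 4 were in all 4 lists. Dusp5 had 3 of 4 regions in all lists, Spry4 2 of 2, Dusp4 1 of 1 and Spred1 1 of 3, whereas none of the 3 regions of Spry2 and not the 1 region of Spry1 was in all 4. Over the 9 genes, 21 of 46 regions (45.7%) were in all 4 lists, against 47.9% of all regions, 9 (19.6%) were in 3 lists, against 14.2%, and 12 (26.1%) were in 1 list, against 20.3%.

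**Figure D1:**
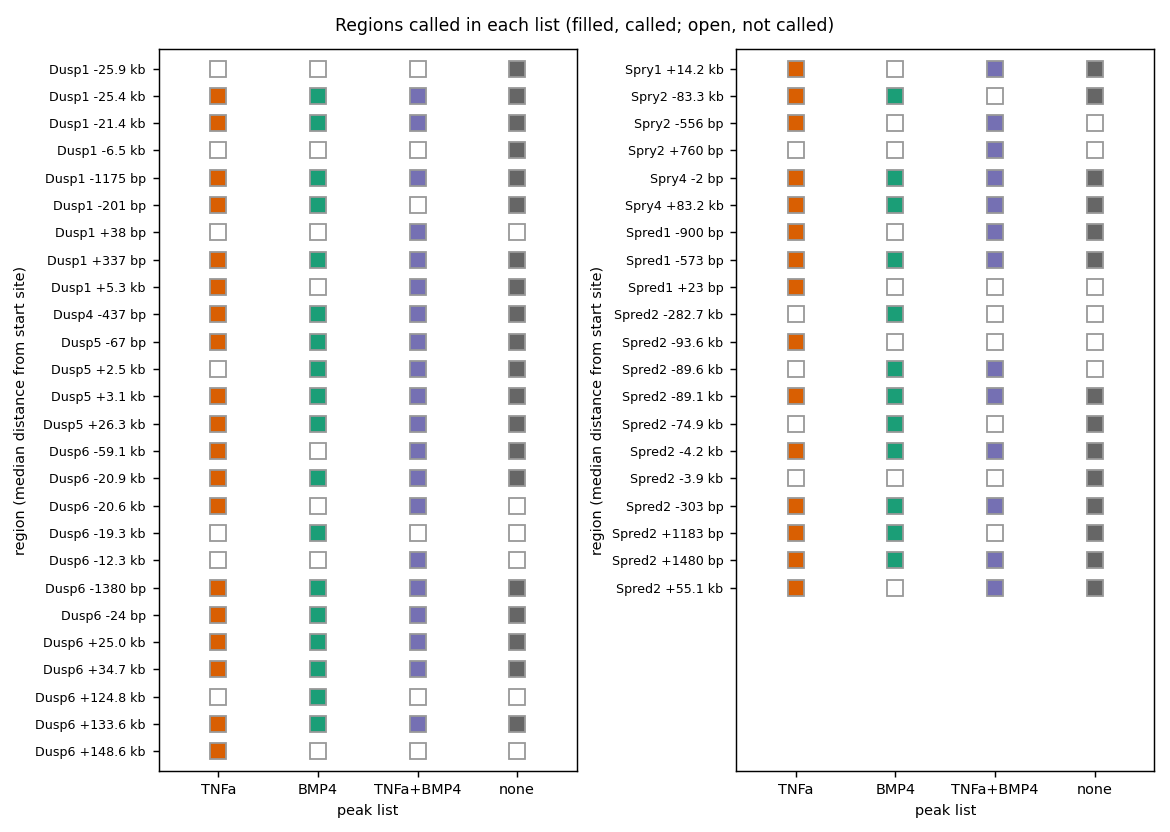
Each row is 1 of the 46 regions, named by gene and median distance from the start site, and each column is a peak list. Filled squares are called regions and open squares are regions with no call, and 21 rows are filled in all 4 columns.

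A region of Spry2 was called in both lists with TNFa and in neither list without it. It lay in the promoter of Spry2, whose product restrains receptor tyrosine kinase signalling, at chr14:105897313-105897437 (-556 bp). Levels are given as CPM, tags-per-million of a library's scaled tags in tested windows. The tags there were few, at 20.5 and 24 CPM in the TNFa libraries and 15.3 and 25 CPM in the TNFa+BMP4 libraries. Of the 46 regions, 2 (4.3%) had this pattern, against 3.8% of all regions. The second, near Dusp6 at -20590 bp, adjoined a region called in all 4 lists and no longer counted when windows within 500 bp were joined, which left 1. The level of an uncalled region in the other groups was not measured by the lists.

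Other patterns by treatment were as rare. A Spred2 region at -74864 bp (chr11:19849516-19849640) was called in both lists without TNFa only, with 48.5 and 152.7 CPM in the BMP4 libraries and 71.7 and 94.6 in the untreated libraries. It was 1 region (2.2%), against 7.4% of all regions. Another Spred2 region, at -89620 bp in the TNFa+BMP4 list, was called in both BMP4 lists only, likewise 1 region (2.2%) against 2.3% of all. Most of its tags came from replicate 1, with 66.8 and 6.82 CPM in the TNFa+BMP4 libraries and 72.2 and 12.1 in the BMP4 libraries. No region was called in both lists without BMP4 only, a pattern held by 2.6% of all regions. Of the 9 regions in 3 lists, 5 were absent from the BMP4 list (30.8% of all regions in 3 lists), 3 from the TNFa+BMP4 list (30.7%), 1 from the TNFa list (23.8%) and 0 from the untreated list (14.6%).

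Among the regions absent from the BMP4 list alone was the 1 region of Spry1, whose product is another Sprouty inhibitor, 14203 bp past the start site in the untreated list. It held 34.2 and 27.6 CPM in the TNFa libraries, 26.4 and 35.3 in the TNFa+BMP4 libraries and 23.1 and 9.54 in the untreated libraries. The tags were few, and the BMP4 list gives no value. A Dusp6 region at -59133 bp in the untreated list had 17.1 and 22.8 CPM in the TNFa libraries, 20.9 and 27.3 in the TNFa+BMP4 libraries and 26.5 and 16.9 in the untreated libraries. A Spred1 promoter region at -887 bp in the untreated list had 37.6 and 32.4 CPM in the TNFa libraries, 37.6 and 36.4 in the TNFa+BMP4 libraries and 47 and 35.2 in the untreated libraries. The groups overlapped at the Dusp6 and at the Spred1 region.

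Levels could be compared where a window was shared by all 4 lists with an overlap of at least 63 of its 125 bp. This held for 14471 windows, of which 14461 had enough tags to be tested, and 17 of these belonged to 6 of the 9 genes (Dusp1 4, Dusp4 1, Dusp5 3, Dusp6 5, Spry4 2 and Spred2 2). Spry1, Spry2 and Spred1 had no such window. Library totals in tested windows were scaled by TMM, a normalisation that assumes most windows to be level between libraries, and differences are on the scale log2(scaled tags + 2). The limma fit over all 14461 windows gave each difference with its SE, and p-values were adjusted over all windows (Benjamini-Hochberg).

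No window of the ERK feedback genes passed an adjusted p of 0.05 in any comparison, and neither did any of the 14461 windows (0% called). That fit takes no account of the replicate number, so variation shared by same-numbered libraries can widen its SE and intervals. With the replicate number as a block, 120 of all windows passed for the TNFa main effect and 0 in the other comparisons, and 0 of the 17 passed in any. Without the block, at an unadjusted p under 0.05, the 17 windows gave 0 calls in TNFa against untreated cells, where 1.02% of all windows passed. They likewise gave 0 in BMP4 against untreated cells (0.18% of all windows), 0 in TNFa+BMP4 against untreated cells (2.48%), 0 in TNFa+BMP4 against TNFa (0.256%) and 0 in TNFa+BMP4 against BMP4 (1.6%). Each of these shares of all windows is under what a threshold of 0.05 gives with no difference at all. In the fit without the block, the median SE of a difference over the 17 windows was 0.62, so that 95% intervals reached 1.42 to each side. With the block, the unadjusted calls among the 17 windows were 0 in TNFa against untreated cells (6% of all windows), 0 in BMP4 against untreated cells (3.62%), 2 in TNFa+BMP4 against untreated cells (17.6%), 0 in TNFa+BMP4 against TNFa (3.28%) and 1 in TNFa+BMP4 against BMP4 (10.2%).

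In TNFa against untreated cells, 13 of the 17 windows had a difference above 0, against 48.9% of all windows, with a median of 0.21 against -0.01 over all windows. Both TNFa libraries lay above both untreated libraries in 2 of the 17 windows (8.46% of all windows), those of Dusp4 and of Spred2 at -4216 bp, and below them in 0 (11%). In BMP4 against untreated cells, 5 of 17 windows were above 0 (49% of all), with a median of -0.07. The BMP4 libraries lay wholly above in 0 windows (7.86%) and wholly below in 2 (9.16%), those of Dusp5 at -67 bp and Dusp6 at 24981 bp. In TNFa+BMP4 against untreated cells, 9 of 17 were above 0 (48.8%), the median was 0.003, or -0.12 with scaling by total tags, and the libraries lay wholly above in 3 windows (15.5%) and wholly below in 0 (17.6%). These 3 comparisons share the untreated libraries.

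TNFa+BMP4 against TNFa had 7 of 17 windows above 0 (50.8% of all), a median of -0.03, 1 window wholly above (8.28%) and 0 wholly below (9.05%). TNFa+BMP4 against BMP4 had 8 of 17 above 0 (50.1%) and a median of -0.01. There the libraries lay wholly above in 4 windows (11.9%), in Dusp1, Dusp6, Spry4 and Spred2, and wholly below in 1 (12.9%), in Dusp6. Windows of 1 gene and comparisons that share libraries are not independent of each other. Scaling by total tags in place of TMM moved every difference in TNFa against untreated cells by -0.14, to a median of 0.08 over the 17 windows, and moved those of TNFa+BMP4 against BMP4 by -0.16.

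**Figure D2:**
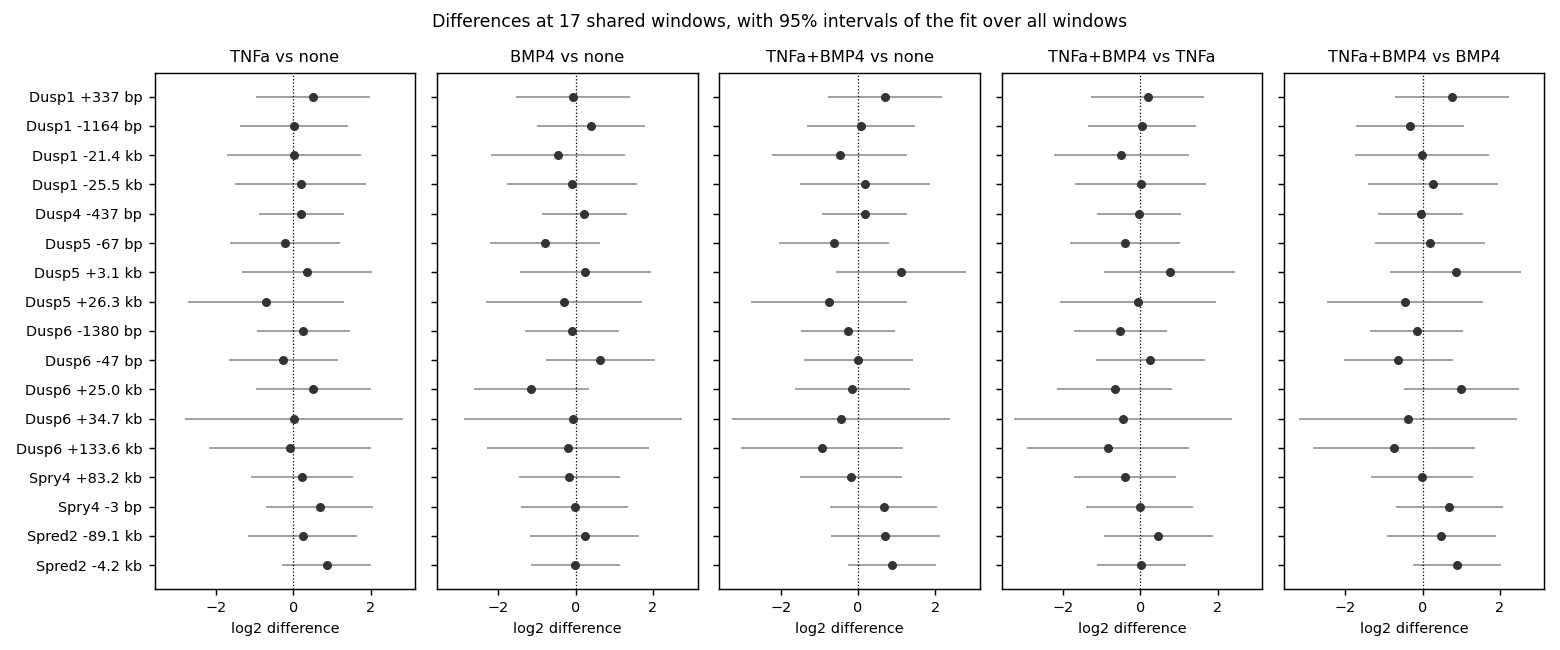
Points are log2 differences at the 17 shared windows in 5 comparisons, and lines are 95% intervals from the limma fit over all windows, without the replicate block. Every interval includes 0, and the intervals are widest at windows whose replicates lay far apart, such as Dusp6 at 34699 bp.

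The TNFa main effect, the mean of both TNFa groups minus the mean of both groups without TNFa, had a median of 0.08 over the 17 windows, which turned to -0.06 with scaling by total tags, and 10 windows were above 0 (49.5% of all). The BMP4 main effect, made likewise, had a median of -0.04 with 7 windows above 0 (49.4%). Over all windows, 4.36% had an unadjusted p under 0.05 for TNFa and 1.06% for BMP4. Among the 17 windows 1 did for TNFa, in Spred2, and 0 did for BMP4. With the replicate block, 18.9% of all windows and the same Spred2 window did for TNFa, and 9.36% of all windows and 1 of the 17, in Dusp6, did for BMP4. The interaction, which asks whether the TNFa difference depended on BMP4, had a median of 0.01 with 9 of 17 above 0 (54%), and 0% of all windows had an unadjusted p under 0.05.

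**Figure D3:**
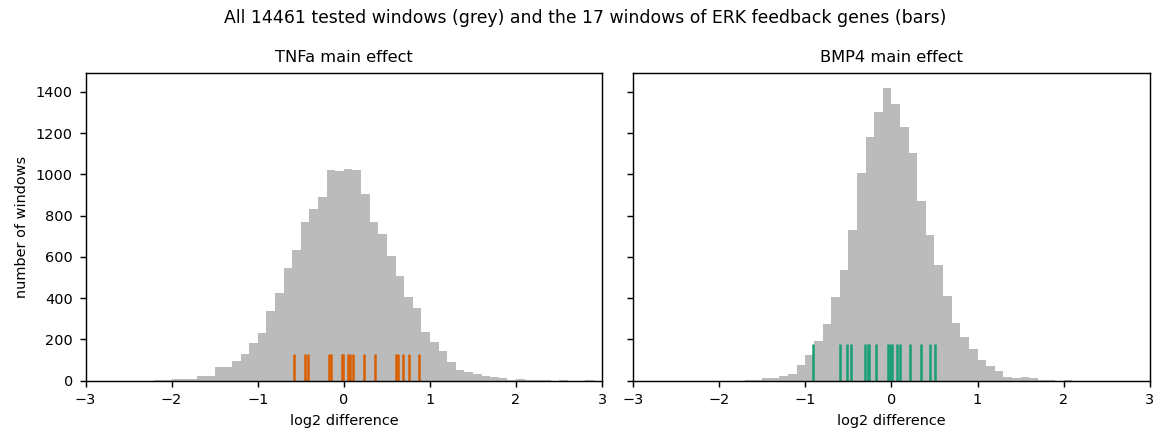
Grey histograms count all 14461 tested windows by their log2 main effect of TNFa (left) and of BMP4 (right), and coloured bars mark the 17 windows of the ERK feedback genes. The bars run from -0.58 to 0.88 for TNFa and from -0.91 to 0.51 for BMP4.

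Dusp1 encodes a nuclear phosphatase of ERK, JNK and p38 that is induced within the first hours of many stresses. Its window in exon 1 (chr17:26508073-26508197, 337 bp past the start site) held 217 and 149.9 CPM in the TNFa libraries, 197.5 and 73.8 in the BMP4 libraries, 207.3 and 204.7 in the TNFa+BMP4 libraries and 193.8 and 82.2 in the untreated libraries. Both TNFa+BMP4 libraries were high and close together, and replicate 2 of the BMP4 and untreated groups was low, so that TNFa+BMP4 did not overlap either of them. The difference was 0.70 ± 0.65 (SE) against untreated cells (limma adjusted p = 0.899) and 0.76 ± 0.65 against BMP4 (adjusted p = 0.989). Over the alternative settings the difference against untreated cells ran from 0.09 to 1.31. Without BMP4 replicate 2 the difference against BMP4 was 0.06, and without BMP4 replicate 1 it was 1.46.

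Each list also held a window over the Dusp1 promoter itself, at differing positions. These are described because each overlaps a part, and not the same part, of the sequence printed above, and not all of them reach the capitals. The TNFa list had it at -201 bp with 136.7 and 227.9 CPM, the BMP4 list at -252 bp with 142.2 and 216.4 CPM, and the TNFa+BMP4 list at 38 bp past the start site with 299.2 and 286.6 CPM. The untreated list had it at -201 bp with 182.7 and 170.9 CPM. The TNFa and untreated windows had the same coordinates, and their libraries overlapped. The other windows differ in position, so their levels are not compared.

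The other Dusp1 windows lay upstream. The window at -1164 bp held 97.4 and 68.4 CPM in the TNFa libraries, 152.3 and 73.8 in the BMP4 libraries, 125.2 and 56.9 in the TNFa+BMP4 libraries and 80.3 and 80.7 in the untreated libraries, and all groups overlapped. The window at -21437 bp held 61.5 and 181.1 CPM in the TNFa libraries, 49.7 and 115.8 in the BMP4 libraries, 50.1 and 111.5 in the TNFa+BMP4 libraries and 73.4 and 149.7 in the untreated libraries. Replicate 2 was above replicate 1 in all 4 groups there, as in 3 of the 17 windows and in 22.6% of all windows. At -25491 bp replicate 2 was below replicate 1 in all 4 groups, with 21.6 to 85.4 CPM over the 8 libraries.

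Dusp4, a related nuclear phosphatase of ERK and other MAP kinases, had 1 region, in its promoter (chr8:34807111-34807235, -437 bp). It held 25.6 and 22.8 CPM in the TNFa libraries, 21.4 and 28 in the BMP4 libraries, 19.5 and 28.4 in the TNFa+BMP4 libraries and 18.8 and 22.7 in the untreated libraries. The TNFa libraries lay just above the untreated ones, by 22.8 against 22.7 at the nearest pair, and the other groups overlapped. Differences from untreated cells were 0.21 ± 0.48 with TNFa, 0.23 ± 0.48 with BMP4 and 0.17 ± 0.48 with TNFa+BMP4. Over the alternative settings those with TNFa ran from 0.08 to 0.33 and those with BMP4 from 0.05 to 0.42. The range of its 4 group means, 0.23 on the log2 scale, was wider than in 3% of windows, which makes Dusp4 the most level of the 17. The bounds nearest to a large effect were 1.30 with TNFa and 1.32 with BMP4.

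Dusp5 encodes a nuclear phosphatase that acts on ERK alone among the MAP kinases. The window at its start site, with the 2 CArG boxes (chr19:53529016-53529140, -67 bp), held 71.8 and 98.4 CPM in the TNFa libraries, 39.5 and 77.7 in the BMP4 libraries, 40.4 and 99 in the TNFa+BMP4 libraries and 102.5 and 93.9 in the untreated libraries. The untreated libraries were high and close together, both BMP4 libraries were below them, and the TNFa+BMP4 libraries lay far apart. BMP4 differed from untreated by -0.80 ± 0.62 (95% interval -2.22 to 0.62, limma adjusted p = 1), and TNFa by -0.22 ± 0.62. The BMP4 difference was -0.32 without BMP4 replicate 1 and -1.27 without BMP4 replicate 2.

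A window in intron 1 of Dusp5 (chr19:53532166-53532290, 3083 bp past the start site) was ordered otherwise. It held 27.3 and 15.6 CPM in the TNFa libraries, 39.5 and 8.91 in the BMP4 libraries, 39 and 34.1 in the TNFa+BMP4 libraries and 25.6 and 9.54 in the untreated libraries. Both TNFa+BMP4 libraries lay above the TNFa and the untreated libraries, while the BMP4 libraries spanned all others. The difference of TNFa+BMP4 was 1.11 ± 0.74 against untreated cells (adjusted p = 0.899) and 0.76 ± 0.74 against TNFa (adjusted p = 1), with counts of 13 to 35 tags in single libraries. Without untreated replicate 2 the difference against untreated cells was 0.48, and without untreated replicate 1 it was 1.73. With the replicate block its unadjusted p was 0.0403 and its adjusted p 0.257 (limma).

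The third shared Dusp5 window, at 26304 bp, held 8.54 and 43.2 CPM in the TNFa libraries, 14.7 and 47.7 in the BMP4 libraries, 12.5 and 28.4 in the TNFa+BMP4 libraries and 20.5 and 54.3 in the untreated libraries. Replicate 2 was the higher in every group, and all groups overlapped. A further intron window, at 2533 bp, was called in every list except that of TNFa, with 24.8 and 43.9 CPM in the BMP4 libraries, 32 and 17.1 in the TNFa+BMP4 libraries and 15.4 and 48.4 in the untreated libraries.

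Dusp6 encodes the cytoplasmic ERK phosphatase, and its transcription is a common readout of ERK activity. The window over its start site (chr10:99263122-99263246, -47 bp) held 94 and 48 CPM in the TNFa libraries, 106.1 and 151.5 in the BMP4 libraries, 94.6 and 69.4 in the TNFa+BMP4 libraries and 53.8 and 121 in the untreated libraries. Both BMP4 libraries lay above all libraries given TNFa, and the untreated libraries spanned most of the range. TNFa+BMP4 differed from BMP4 by -0.63 ± 0.62 (adjusted p = 0.989), BMP4 from untreated by 0.64 ± 0.62 and TNFa from untreated by -0.26 ± 0.62. The windows of the 4 lists overlapped here by as little as 67 bp, so the groups were counted over shifted stretches of the promoter.

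The Dusp6 window with the widest range lay at 24981 bp past the start site (chr10:99288150-99288274), in intergenic sequence, at the same coordinates in all 4 lists. It held 97.4 and 116.3 CPM in the TNFa libraries, 29.3 and 35 in the BMP4 libraries, 37.6 and 116 in the TNFa+BMP4 libraries and 99.9 and 54.3 in the untreated libraries. The BMP4 libraries were the lowest and close together, below every library of the other groups, while the TNFa+BMP4 libraries lay at opposite ends of the range. BMP4 differed from untreated by -1.15 ± 0.65 (95% interval -2.64 to 0.34, limma unadjusted p = 0.113, adjusted p = 1), which was -1.58 without untreated replicate 2 and -0.72 without untreated replicate 1. TNFa+BMP4 differed from BMP4 by 1.01 ± 0.65 (adjusted p = 0.989), which was 0.23 without TNFa+BMP4 replicate 2 and 1.78 without TNFa+BMP4 replicate 1. Its BMP4 main effect was -0.91 ± 0.46 (limma unadjusted p = 0.0821, adjusted p = 1), and with the replicate block the unadjusted p was 0.0329 and the adjusted p 0.493. The range of group means, 1.67, was the widest of the 17 windows and wider than in 94.4% of all windows. The widest of any 17 windows would be expected to rank high, so this share does not mark the window as unusual.

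Windows near other genes followed the same profile over the 8 libraries. The 5 closest by Pearson r were an intergenic window nearest to Hist1h2ah (r = 0.99), an intron window of Afap1l2 (0.98), and the promoter windows of Diablo (0.98), Tecpr2 (0.98) and Cep97 (0.98). These are the highest of 14461 windows over 8 libraries that share their groups, and they are a description only.

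The remaining Dusp6 windows overlapped between all groups. At -1380 bp the levels ran from 29.2 to 68.4 CPM over the 8 libraries. At 34699 bp the counts were few, at 6.83 and 32.4 CPM in the TNFa libraries, 3.39 and 47.7 in the BMP4 libraries, 11.1 and 10.2 in the TNFa+BMP4 libraries and 4.27 and 44.8 in the untreated libraries, so that the replicates of the TNFa, BMP4 and untreated groups lay far apart and those of TNFa+BMP4 close together. At 133606 bp, the highest of these distal windows, the CPM were 116.2 and 229.1 in the TNFa libraries, 66.6 and 343.7 in the BMP4 libraries, 57.1 and 142.2 in the TNFa+BMP4 libraries and 96.5 and 311.1 in the untreated libraries. Replicate 2 was above replicate 1 in each group there too.

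**Figure D4:**
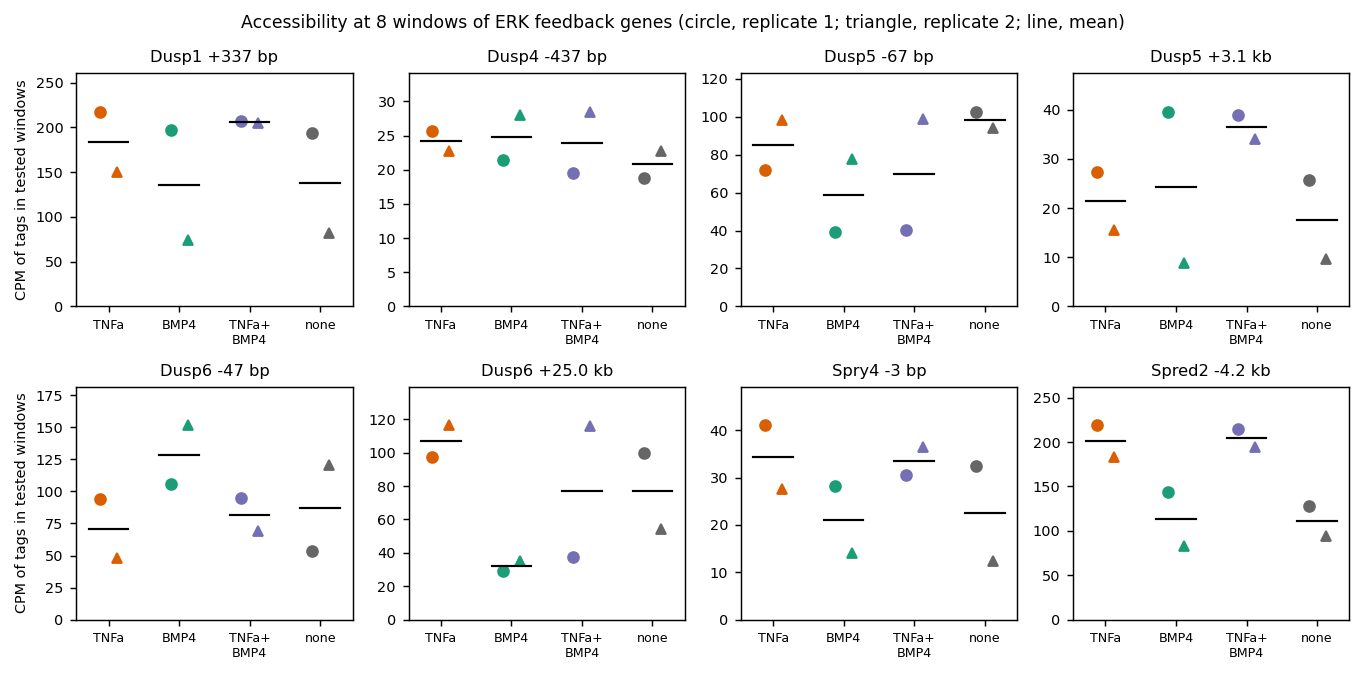
CPM (tags-per-million of TMM-scaled tags in tested windows) at the 8 named windows, with circles for replicate 1, triangles for replicate 2 and lines for the group mean. The Spred2 window shows the TNFa and TNFa+BMP4 libraries, at 183.5 to 218.7, above the BMP4 and untreated libraries, at 82.7 to 143.3.

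Among the Sprouty genes, Spry4 alone had shared windows. The window at its start site (chr18:38601288-38601412, -3 bp) held 41 and 27.6 CPM in the TNFa libraries, 28.2 and 14 in the BMP4 libraries, 30.6 and 36.4 in the TNFa+BMP4 libraries and 32.5 and 12.5 in the untreated libraries. Both TNFa+BMP4 libraries lay above the BMP4 libraries, and the untreated libraries overlapped all other groups. The difference of TNFa+BMP4 from BMP4 was 0.69 ± 0.61 (adjusted p = 0.989), and that of TNFa from untreated was 0.68 ± 0.61 (adjusted p = 1). Without BMP4 replicate 2 the first was 0.23, and without BMP4 replicate 1 it was 1.15. A distal Spry4 window at 83223 bp held 23.5 to 52.9 CPM, with all groups overlapping. Spry2 had a further region at -83318 bp in the untreated list, called in 3 lists, with 3.42 and 16.8 CPM in the TNFa libraries, 4.51 and 19.1 in the BMP4 libraries and 5.98 and 13.2 in the untreated libraries.

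Spred2, which encodes a membrane-bound inhibitor of Ras to Raf signalling, held the 1 window that separated all libraries with TNFa from all without it. It is intergenic, at -4216 bp in the untreated list (chr11:19920164-19920288). It held 218.7 and 183.5 CPM in the TNFa libraries, 143.3 and 82.7 in the BMP4 libraries, 214.3 and 194.5 in the TNFa+BMP4 libraries and 128.1 and 93.9 in the untreated libraries. All 4 libraries with TNFa were high and all 4 without it were low, with no overlap, a pattern that 1 of the 17 windows (1.8% of all windows) had, and 0 had the opposite one (2.66%). The same split by BMP4 was held by 0 of the 17 windows in either direction (0.754% higher and 0.857% lower of all windows).

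The TNFa main effect at this Spred2 window was 0.88 ± 0.36 (95% interval 0.07 to 1.69, limma unadjusted p = 0.0372, adjusted p = 0.856). Over 18 alternative settings it ranged from 0.68 to 1.08, with adjusted p from 0.141 to 1. The single comparisons gave 0.86 ± 0.50 for TNFa against untreated cells and 0.89 ± 0.50 for TNFa+BMP4 against BMP4, the last with a range of 0.50 to 1.29 over the alternative settings. With the replicate block, the unadjusted p was 0.00831 for the main effect (adjusted p = 0.141), 0.045 for TNFa+BMP4 against BMP4 (adjusted p = 0.488) and 0.047 for TNFa+BMP4 against untreated cells (adjusted p = 0.276). BMP4 differed from untreated by -0.01 ± 0.50, and TNFa+BMP4 from TNFa by 0.03 ± 0.50, each with a 95% interval that reached past 1 in both directions. Replicate 2 was below replicate 1 in all 4 groups, as in 4 of the 17 windows and 23.3% of all windows.

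Other Spred2 windows did not share this order. The promoter was called in all 4 lists, at differing positions, with 41 and 96 CPM in the TNFa libraries at -303 bp, 21.4 and 69.4 in the BMP4 libraries at -310 bp, 15.3 and 27.3 in the TNFa+BMP4 libraries at -242 bp and 56.4 and 66 in the untreated libraries at -303 bp. The shared window at -89073 bp held 46.1 and 32.4 CPM in the TNFa libraries, 50.8 and 28.6 in the BMP4 libraries, 45.9 and 63.7 in the TNFa+BMP4 libraries and 52.1 and 19.8 in the untreated libraries, and all groups overlapped. In intron 1, at 1475 bp to 1547 bp past the start site, the 4 lists called windows of 1 region with 82 and 43.2 CPM in the TNFa libraries, 51.9 and 19.7 in the BMP4 libraries, 55.7 and 86.4 in the TNFa+BMP4 libraries and 68.3 and 22 in the untreated libraries. Both TNFa+BMP4 libraries lay above the BMP4 libraries there, over windows shifted between the lists.

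Spred1, the close relative of Spred2, had windows in its promoter in every list but none shared at the overlap required. At -617 bp, with the same coordinates in both BMP4 lists, it held 80.1 and 44.6 CPM in the BMP4 libraries and 77.9 and 83 in the TNFa+BMP4 libraries. The neighbouring windows of the other lists held 75.2 and 40.8 CPM in the TNFa libraries, at -526 bp, and 53.8 and 56.5 in the untreated libraries, at -529 bp. Of the 7 promoter sequences searched, those of Dusp1, Dusp5, Dusp6 and Spred2 overlapped a called window in all 4 lists, that of Spred1 in the TNFa list alone, and those of Spry1 and Spry2 in none.

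The wider ERK cascade was read from a list of 69 other genes, of which 49 had 102 tested windows. None of the 102 windows passed an adjusted p of 0.05 in either direction in any comparison, and with the replicate block 1 did, for the TNFa main effect. For the TNFa main effect, 5 windows were higher and 6 lower at an unadjusted p under 0.05, together 11 of 102 against 4.36% of all windows, with a median of -0.04 over the 102 and -0.01 over all windows. With the block these were 30 of 102, against 18.9% of all windows. Of the BMP4 main effects, 68 of 102 were above 0, against 49.4% of all windows, with a median of 0.12 against -0.01 over all windows.

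The smallest unadjusted p of the list was at Dusp10, a phosphatase of JNK and p38, in a window 226969 bp from its start site. It held 283.6 and 91.2 CPM in the TNFa libraries, 30.5 and 35 in the BMP4 libraries, 296.4 and 117.1 in the TNFa+BMP4 libraries and 32.5 and 41.1 in the untreated libraries. Its TNFa main effect was 2.26 ± 0.50 (limma unadjusted p = 0.0016, adjusted p = 0.856), and every library with TNFa lay above every library without it, as in 1.8% of all windows. With the replicate block this window passed, at an unadjusted p of 2.68e-05 and an adjusted p of 0.0204. At Fgfr1, a receptor upstream of Ras, a window at 18041 bp had a TNFa main effect of -1.66 ± 0.48 (unadjusted p = 0.00753, adjusted p = 0.856).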

How the data were processed

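Reads had been processed by the authors with Trimmomatic 0.39, Bowtie2 2.5.1, Picard 2.25.1, deepTools 3.5.1 and HOMER 4.11 on build mm10, per the submitters' processing notes. HOMER windows were called on pooled replicates of each group against sonicated DNA, per the file headers. Whether insertion sites were shifted was not given in the sources used here. The deposited lists hold a peak score, a log2 fold over background with its p-value and adjusted p-value, and values per library that the file headers call tag counts. Those values are regularised log2 values, fitted by the authors in each list alone. The peak score served only to cut the lists to 1 length in an alternative.

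Tag counts were recovered by solving the rlog equation with 4 constants per list, and put all lists on 1 scale. Of the values, 99.3% came out within 0.1 of a whole number in the BMP4 list and at least 99.9% in the others, against 25.7% to 35.6% with the constants moved by 5%. Each group was counted in its own list's window. Windows with at least 10 tags in at least 2 libraries and 15 in all were tested with limma 3.58.1 (R 4.3.3) with a mean-variance trend over the 8 libraries, with group as the only term. The procedure was tried on simulated data for TNFa against untreated cells, with 200 of 14461 windows changed. It recovered 3% of the 2-fold changes and 55% of the 4-fold ones, so most simulated 2-fold changes were missed. The simulated spread was a fixed dispersion of 0.1 for all windows, with no effect of the replicate number. It was not fitted to these libraries, whose replicates differed by a median of 0.59 (TNFa+BMP4) to 1.02 (BMP4) log2 over all windows. The shares recovered therefore need not hold for the real data. Deviations of same-numbered replicates from their group means correlated by 0.104 to 0.763 over the 6 pairs of groups. The numbers were therefore taken as pairing the libraries in the fit with the replicate block, and in no other fit. This pairing comes from the data, since the labels do not say what a number stands for. Named windows are each gene's shared window nearest the start site, that with the widest range of group means, and any at an unadjusted p under 0.05. The 9 genes, the ERK list and the markers were chosen with earlier results of these data known.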

Additional observations from a re-analysis of the deposited data

How the results depend on the processing

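No alternative gave a window of the 9 genes past an adjusted p of 0.05, and none of the 15 differences at named windows that were followed turned its sign. Most of these were followed because the libraries of the groups compared did not overlap. Leaving out 1 library could hardly turn such a sign, so the kept signs are no measure of stability. With the replicate number as a block (replicate block), 120 of all windows passed for the TNFa main effect, against 0 without it, and 0 of these belonged to the 9 genes. Among the 9 genes and the ERK list the block changed no other adjusted call than that at Dusp10. Restricting to windows with identical coordinates left only those of Dusp1 at 337 bp, Dusp5 at -67 bp and Dusp6 at 24981 bp. Each median was then the value of 1 window and does not describe the 17. It was 0.54 in TNFa against untreated cells, -0.79 in BMP4 against untreated cells, -0.37 in TNFa+BMP4 against TNFa and 0.80 in TNFa+BMP4 against BMP4. In these windows the median was 0.67 for the TNFa main effect, -0.58 for the BMP4 main effect and 0.42 for the interaction. With an overlap of at least 80%, the medians were 0.49 in TNFa+BMP4 against BMP4, 0.37 for the TNFa main effect and 0.24 for the interaction. Leaving out 1 library at a time gave medians from -0.30 to 0.35 in TNFa+BMP4 against BMP4, from -0.27 to 0.066 in TNFa+BMP4 against TNFa and from -0.23 to 0.17 for the interaction. Joining windows within 500 bp gave 5 regions in 3 lists, 1 with both TNFa lists alone and 0 with both BMP4 lists alone. Cutting the lists to the length of the shortest gave 1 region in another pair of lists. With 2 libraries a group, and replicates that lay far apart in some windows, intervals were wide. Tags were few in some windows.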

Other observations

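Among 36 windows of 14 nuclear factors of the ERK cascade, 4 had an unadjusted p under 0.05 for the TNFa main effect, as did 4.36% of all windows, and none passed the adjusted p, which was 0.856 in each case (limma). A window of Fos, which encodes an AP-1 subunit, held 78.6 and 101.9 CPM in the TNFa libraries, 56.4 and 50.9 in the BMP4 libraries, 104.4 and 131.9 in the TNFa+BMP4 libraries and 58.1 and 52.1 in the untreated libraries. The libraries with TNFa did not overlap those without it, as in 1.8% of all windows, and the main effect was 0.89 ± 0.35. Ets2, an ETS factor, had a main effect of 1.15 ± 0.42 at 26649 bp from its start site. Egr1, a zinc finger factor induced early by ERK, had one of 1.06 ± 0.45 at -349 bp, with 331.5 and 287.9 CPM in the TNFa libraries, 153.5 and 89.7 in the BMP4 libraries, 219.9 and 365.1 in the TNFa+BMP4 libraries and 303.1 and 93.9 in the untreated libraries, which overlapped. Elk3, an ETS factor that can repress transcription, had one of -1.13 ± 0.37, with 22.2 and 24 CPM in the TNFa libraries, 60.9 and 64.3 in the BMP4 libraries, 27.8 and 23.9 in the TNFa+BMP4 libraries and 35.9 and 69 in the untreated libraries.

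Of the 25 windows of other feedback or phosphatase genes on the list, 3 had a negative TNFa main effect at the same unadjusted threshold. The Dusp10 window described above is another of the 25 that passed it, with a positive main effect of 2.26 ± 0.50. For the windows named here the adjusted p was again 0.856 (limma), and 4.36% of all windows passed the unadjusted threshold. Dusp7, a phosphatase of ERK, had a main effect of -1.07 ± 0.39, and Rasa3, a GTPase activating protein of Ras, one of -0.91 ± 0.37. Dusp14 had one of -1.09 ± 0.44, with 10.3 and 12 CPM in the TNFa libraries, 44 and 60.5 in the BMP4 libraries, 29.2 and 10.2 in the TNFa+BMP4 libraries and 12.8 and 29.4 in the untreated libraries, so that libraries with and without TNFa overlapped. Mras, a Ras family member, had a main effect of -0.84 ± 0.35.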
